A study of Homo sapiens with 6 samples.

Results

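Zinc finger genes of chromosome 19 were followed by RNA sequencing in the human glioma cell line U251 after the ribosomal protein gene RPL13 was targeted with a small interfering RNA. Genes were chosen by 2 conditions: a symbol made of ZNF and a number, and a protein-coding locus on chromosome 19 of GRCh38. Of the 21429 rows of the deposited table, 223 met both, and 208 of these had a mean level of at least 3 and were tested among 15327 genes in all. The other 15, with means of 0.99 to 2.87, were ZNF20, ZNF66, ZNF85, ZNF99, ZNF114, ZNF233, ZNF296, ZNF541, ZNF564, ZNF709, ZNF737, ZNF763, ZNF781, ZNF793 and ZNF878, and they enter no count of differences. Symbols ending in a letter, such as ZNF585A, fall outside the definition. All cells carried mutant amyloid precursor protein (K670N/M671L) as a stable insertion and received doxycycline at 1 µg/mL to induce it, from the change of medium at 24 h. The first group (siRPL13, 3 libraries) was electroporated with the RNA against RPL13, whose product sits in the large subunit of the ribosome. The other (siNC, 3 libraries) was electroporated with a control RNA. The labels do not say whether the stable line is a single clone. Values are regularized-log (rlog) levels, on which a difference of 1 is a doubling.

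Most of these genes encode proteins in which a Krüppel-associated box (KRAB) at the amino end precedes a long array of C2H2 zinc fingers. The fingers read DNA. The KRAB domain recruits TRIM28 (KAP1), which brings the methyltransferase SETDB1 and heterochromatin protein 1 and leads to silent chromatin marked by histone H3 lysine 9 methylation, chiefly over transposable elements. The family expanded in primates by tandem duplication, which left clusters of closely related neighbours along both arms of chromosome 19, and the gene bodies themselves are known to carry the same repressive mark.

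A KRAB A-box letter pattern was found in 173 of the 208 tested genes, and the number of C2H2 fingers ran from 0 in ZNF738 to 32 in ZNF91, with a median of 12. The pattern misses some boxes, so the 35 genes without a match are not shown to lack the domain. Because paralogs share stretches of sequence, reads could be split among them, and each single-gene value carries that uncertainty. Exonic positions were shared with another annotated gene in 112 of the 208, on the opposite strand in 68 of them. The labels do not say whether counting used strand, so reads of a gene and its antisense partner cannot be told apart.

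Promoters of several of the genes whose differences are described further on are shown first, to set neighbouring and distant start sites side by side. RefSeq (GRCh38.p14) promoters of 300 bases, 250 before and 50 after the start, were matched by symbol for 186 of the 208 tested genes. These 5 were picked with their values known. Each sequence runs 5′ to 3′ on the gene's strand, and capitals mark either the cyclic-AMP response element letters TGACGTCA or the ETS-type letters CCGGAAG, in either direction. ZNF561 and ZNF426 lie close together in 19p13, ZNF347 and ZNF134 lie in separate clusters of 19q13, and ZNF837, near the end of the long arm, holds neither motif.
ZNF561, chr19:9621183-9621482, minus strand: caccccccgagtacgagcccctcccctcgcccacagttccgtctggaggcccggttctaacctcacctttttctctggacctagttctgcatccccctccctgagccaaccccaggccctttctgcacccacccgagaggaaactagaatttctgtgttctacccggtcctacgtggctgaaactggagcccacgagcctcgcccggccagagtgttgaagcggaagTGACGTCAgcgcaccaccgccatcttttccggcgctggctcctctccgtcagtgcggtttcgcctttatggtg
ZNF426, chr19:9538596-9538895, minus strand: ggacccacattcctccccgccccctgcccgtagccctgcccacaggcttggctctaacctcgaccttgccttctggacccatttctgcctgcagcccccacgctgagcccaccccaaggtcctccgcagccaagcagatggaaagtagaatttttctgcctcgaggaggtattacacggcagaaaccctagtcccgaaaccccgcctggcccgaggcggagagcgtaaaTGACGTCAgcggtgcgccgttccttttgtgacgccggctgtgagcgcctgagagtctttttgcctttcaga
ZNF347, chr19:53159004-53159303, minus strand: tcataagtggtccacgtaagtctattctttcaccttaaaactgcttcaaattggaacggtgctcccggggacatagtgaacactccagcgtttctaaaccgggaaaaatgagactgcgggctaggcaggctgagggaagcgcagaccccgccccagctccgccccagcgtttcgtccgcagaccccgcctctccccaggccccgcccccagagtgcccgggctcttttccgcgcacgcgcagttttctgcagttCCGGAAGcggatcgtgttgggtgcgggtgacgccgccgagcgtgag
ZNF134, chr19:57613992-57614291, plus strand: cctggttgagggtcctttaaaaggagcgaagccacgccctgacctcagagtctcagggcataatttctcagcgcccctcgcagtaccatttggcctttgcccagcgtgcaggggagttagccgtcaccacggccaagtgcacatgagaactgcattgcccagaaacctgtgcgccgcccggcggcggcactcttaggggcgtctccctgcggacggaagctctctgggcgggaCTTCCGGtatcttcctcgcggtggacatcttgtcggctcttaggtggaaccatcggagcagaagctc
ZNF837, chr19:58380981-58381280, minus strand: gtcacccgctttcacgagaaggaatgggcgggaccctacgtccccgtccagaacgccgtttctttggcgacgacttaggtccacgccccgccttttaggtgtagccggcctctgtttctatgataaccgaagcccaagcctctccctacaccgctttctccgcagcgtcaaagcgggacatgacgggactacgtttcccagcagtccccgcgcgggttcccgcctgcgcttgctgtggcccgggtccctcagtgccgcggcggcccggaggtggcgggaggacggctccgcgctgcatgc

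The match is a description of letters and not of a bound factor. The response element ends 15 bases before the start site in ZNF561 and 13 bases before it in ZNF426. Aligned end to end, these 2 promoters were identical at 64.6% of positions, against 47.8% for ZNF347 and ZNF134, 48.8% for ZNF561 and ZNF347 and 48.0% for ZNF561 and ZNF837. The ETS-type letters stood in 82 of the 186 promoters (44.1%), against 38.8% of 165 promoters of ZNF genes on other chromosomes, 19.2% of 10108 promoters of tested protein-coding genes and 10.7% of all 27305 promoters of that length. The response element was found in 7 of the 186 (3.76%), close to the 3.36% of tested protein-coding genes and the 1.98% of all promoters. A TATA box (TATAAA, either strand) was present in 2.15% of these promoters, against 5.33% of tested protein-coding genes and 12% of all promoters. The YY1-type letters AAGATGGC (either strand) stood in 6.99% of these promoters, against 5.37% of tested protein-coding genes, and the NRF1-type letters GCATGCGC (either strand) in 3.76%, against 5.5%. Median GC content of the promoters was 60.7%, with a median of 21 CpG, against 65.3% and 27 for tested protein-coding genes.

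The targeted gene checks the labels. RPL13 stood at 13.03, 13.12 and 14.09 in siRPL13 replicates 1 to 3, against 14.05, 14.16 and 14.18 in siNC replicates 1 to 3. The library labelled siRPL13 replicate 3 therefore lay within the siNC range. RPL13 was not lowered in any siNC library. A knockdown that failed in this culture and a control culture under this label cannot be told apart from the files. Each 6-library difference, and each statement on all 3 siRPL13 libraries, takes that label as given. The main counts and medians of the 208 genes are given over all 6 libraries and again over 5, leaving out that library. Some smaller sets and single genes are given for a single choice of libraries. In the main fit over 6 libraries 0 of the 15327 genes tested were called, so calls of single genes refer to the 5-library comparison. RPL13 differed by -0.72 ± 0.24 (SE) over 6 libraries, with a limma adjusted p of 0.589, and by -1.06 ± 0.06 over 5, with a limma adjusted p of 8.13e-06. That library was left out for its RPL13 level, so the 5-library RPL13 result follows from the choice and is no independent check. Since the samples are bulk cultures, fewer cells of a kind and less RNA per cell cannot be told apart. VIM, NES, CD44, GFAP and SOX9 were high in all libraries. VIM stood at 15.90 to 15.98 in siRPL13 and 16.14 to 16.33 in siNC cells. S100B stood at only 5.48 to 5.83 over all libraries, ALDH1L1 at 0.77 to 0.85 was not tested, and AQP4 was not listed. Of 6 tested glioma and astrocyte markers 2, VIM and NES, fell in the 5-library comparison, where 10.7% of all genes tested did. Among markers of other cell types, CD68, CDH1 and RBFOX3 lay between 0.20 and 0.45 in every library. The epithelial KRT18, at 7.78 to 8.15, and the neuronal SYT1, at 8.58 to 8.78 over all libraries, were expressed but did not pass. The endothelial CDH5, at 5.84, 5.99 and 6.25 in siRPL13 against 6.43, 6.41 and 6.30 in siNC cells, was the 1 that fell. The part of these in the results below was not tested.

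Chromosome 19 ZNF genes stood slightly higher in siRPL13 cells, many by a little rather than a few by much. Over 6 libraries the median difference was 0.057, and 157 of the 208 genes (75.5%) had a positive one, against a median of -0.001 and 49.6% over all genes tested. Taking each library against the mean of the siNC libraries, the median deviation over the 208 genes was 0.075, 0.067 and 0.042 in siRPL13 replicates 1 to 3, against -0.011, 0.019 and -0.013 in siNC replicates 1 to 3. All 3 siRPL13 medians lay above all 3 siNC medians, which had an SD of 0.018, and the library in which RPL13 was not lowered had the lowest of the siRPL13 medians. The share of these genes above the siNC mean was 71.2%, 66.3% and 65.4% in siRPL13 libraries and 47.1%, 58.2% and 40.4% in siNC libraries. Differences were small throughout: 135 of the 208 lay within 0.1 of 0, and the largest was 0.30.

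**Figure D1:**
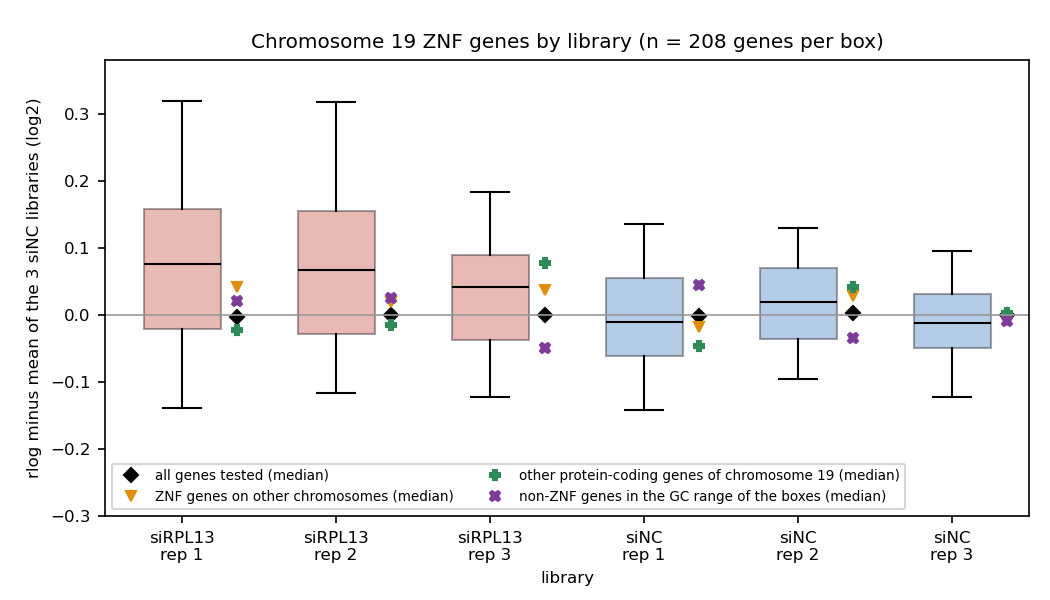
Deviation of 208 chromosome 19 ZNF genes from the mean of the 3 siNC libraries (y axis, rlog, log2 scale) in each library (x axis, siRPL13 red, siNC blue); boxes span the quartiles with the median as a line and whiskers span the central 90% of genes. Symbols give the medians of other gene sets in the same library; the box medians are 0.075, 0.067 and 0.042 in siRPL13 and -0.011, 0.019 and -0.013 in siNC libraries.

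No single gene passed over 6 libraries. With limma and adjustment over all genes tested, 0 of the 208 were called, where 0.0% of all genes tested were, and the smallest adjusted p of limma was 0.589. At an unadjusted p under 0.05, 13 (6.25%) were higher and 1 (0.481%) lower, where 3.91% and 4.4% of all genes tested were. The groups did not overlap, siRPL13 above siNC, for 24 genes (11.5%), against 6.92% of all genes tested. The opposite separation held for 3 genes (1.44%), against 6.9% of all genes tested. Separation upwards was not confined to zinc finger genes, since 91 of 717 other protein-coding genes of the chromosome (12.7%) were also separated upwards.

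Over 5 libraries, which drop siRPL13 replicate 3, 19 of the 208 genes rose (9.13%) and 2 fell (0.962%). Among all genes tested 8.42% rose and 10.7% fell, so the share that rose was near the background and the share that fell was below it. The median difference was 0.072, with 147 positive (70.7%), against -0.001 and 49.5% over all genes tested. In this comparison the groups did not overlap for 80 genes with siRPL13 above and for 15 with siRPL13 below, where 24.7% and 26.6% of all genes tested were so placed. Of the 21 genes called, 12 had siRPL13 replicate 3 on the same side of the siNC mean as the other siRPL13 libraries, and 5 of the 19 that rose had it above all siNC values. No gene reached a doubling, and the rises ran from 0.19 to 0.42. The count of 21 was 1 without siRPL13 replicate 1 and 4 without siRPL13 replicate 2, which leave a single siRPL13 library whose spread is taken from siNC.

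The comparison sets place this shift. The 197 tested ZNF genes on other chromosomes had a median difference of 0.033 over both 6 and 5 libraries, with 18 higher (9.14%) and 11 lower (5.58%) calls over 5. Those of them with the KRAB pattern (79) had 0.042, and those without it (118) had 0.020 over 6 libraries. The 717 other protein-coding genes of chromosome 19 had 0.007 over 6 and -0.018 over 5 libraries, with 61 called higher (8.51%) and 99 lower (13.8%). By library their median deviation was -0.022, -0.015 and 0.077 in siRPL13 and -0.046, 0.041 and 0.003 in siNC libraries, so they stood highest in the siRPL13 library in which the chromosome 19 ZNF genes stood lowest. Within the chromosome 19 ZNF genes, those with the KRAB pattern had a median of 0.055 over 6 libraries and those without it 0.069.

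Base composition moved with the libraries as well. The exons of these genes are AT-rich, with a median GC content of 42.4% against 48.1% over all genes tested. The 3036 non-ZNF protein-coding genes within their interquartile range of GC had median deviations of 0.020, 0.025 and -0.050 in siRPL13 and 0.045, -0.034 and -0.009 in siNC libraries, and a median difference of 0.001 over 6 and 0.021 over 5 libraries. Genes in their range of expression level (1832) had -0.009 and -0.017, and genes in their range of exon length (4845) had -0.014 and -0.023. The 195 non-ZNF genes inside all 3 ranges had a median of 0.00 over 6 libraries and 0.008 over 5, with 13 higher (6.67%) and 9 lower (4.62%) calls. In the GC range alone, 11.3% of genes were called higher and 7.71% lower over 5 libraries, against 9.13% and 0.962% of the ZNF genes. The part of composition in the differences of the ZNF genes themselves was not tested.

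By position, the shift was seen in 19p13 and 19q13 taken as whole bands, unevenly within each, and was not seen in the same form in 19p12. In 19q13 the 145 tested genes had a median difference of 0.061 over 6 libraries, with 113 positive. The median deviation there was 0.092, 0.087 and 0.034 in siRPL13 libraries and -0.014, 0.020 and -0.013 in siNC libraries. The 42 genes of 19p13 had 0.064, with 31 positive, and by library 0.070, 0.077 and 0.023 in siRPL13 and -0.002, 0.011 and -0.008 in siNC. In both bands all siRPL13 medians lay above all siNC medians. The single gene of 19q12, ZNF536, a regulator of neural differentiation, had -0.06.

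The 19p12 cluster is known for genes that arose in primates, among them ZNF91 and ZNF93, known to bind and repress SVA and LINE-1 elements. Its 20 tested genes, within chr19:19900913-24129961, had a median difference of 0.030 over 6 libraries and -0.012 over 5, with 13 and 7 positive. In either direction 0 were called, where over 5 libraries 8.42% of all genes tested rose and 10.7% fell. The 6-library value rested on 1 library. The median deviation was -0.015, -0.035 and 0.102 in siRPL13 replicates 1 to 3, against -0.016, 0.013 and -0.017 in siNC replicates, and 95% of the cluster's genes exceeded the siNC mean in siRPL13 replicate 3. The siRPL13 libraries in which RPL13 was lowered thus lay within or below the siNC range, and the one in which it was not lowered stood above it. Whether 19p12 differs from 19q13 was not tested; their median GC contents were 37.3% and 42.4%.

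ZNF93 stood at 7.22, 7.18 and 7.66 in siRPL13 cells and 7.20, 7.38 and 7.26 in siNC cells, high only in siRPL13 replicate 3. ZNF91 stood at 8.22, 8.07 and 8.24 in siRPL13 and 7.94, 8.36 and 8.12 in siNC cells, with the groups overlapping; both genes were picked with their values known. The largest 6-library difference of the cluster was that of ZNF714, at 8.02, 8.01 and 8.25 in siRPL13 against 7.85, 7.92 and 8.04 in siNC cells. Its groups overlapped, and its difference of 0.16 ± 0.09 (SE) had a limma adjusted p of 0.616. Over 5 libraries the largest was that of ZNF724, at 7.12 and 7.13 in siRPL13 against 7.06, 7.42 and 7.34 in siNC cells, with -0.15 ± 0.10 and a limma adjusted p of 0.337.

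**Figure D2:**
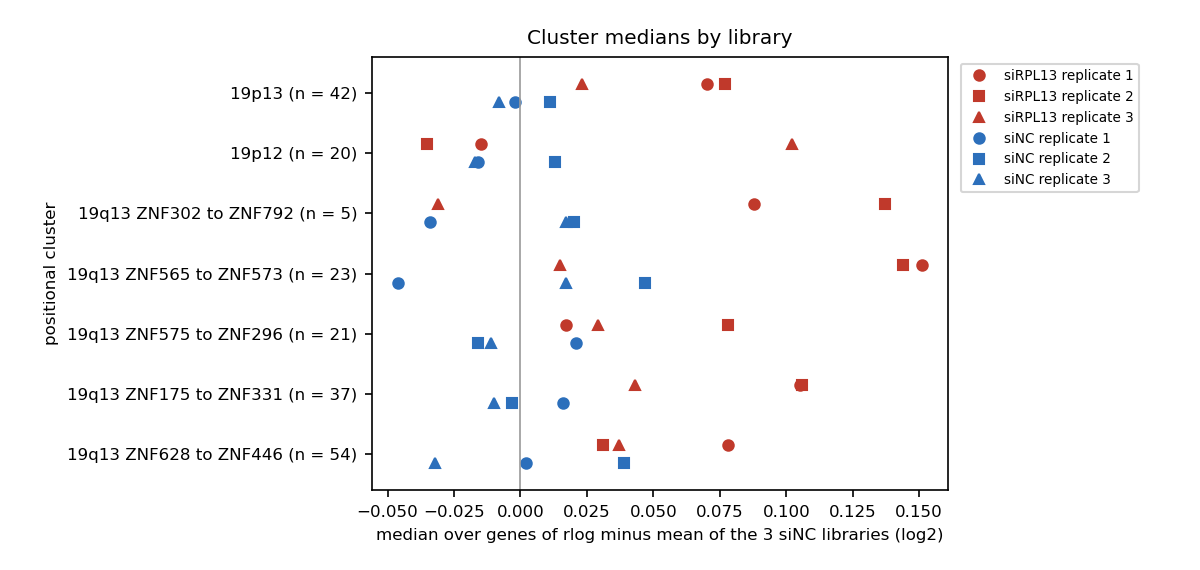
Median over the genes of each positional cluster (rows, in order along the chromosome) of the deviation from the mean of the 3 siNC libraries (x axis, rlog, log2 scale), 1 point per library, siRPL13 in red above siNC in blue. In 19p12 siRPL13 replicate 3 stands at 0.102 apart from the other 5 libraries, while in the cluster from ZNF565 to ZNF573 siRPL13 replicates 1 and 2 stand at 0.151 and 0.144.

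On the long arm, members no more than 1 Mb apart were taken as a cluster. The cluster from ZNF565 to ZNF573 (chr19:36182060-37817300) had the highest median of those with at least 5 tested genes, 0.124 over 6 libraries and 0.179 over 5. Of its 23 tested genes 20 were positive over 6 libraries. Over 5 libraries 4 (17.4%) rose, ZNF461, ZNF260, ZNF529 and ZNF146, where 8.42% of all genes tested did. Its library medians were 0.151, 0.144 and 0.015 in siRPL13 against -0.046, 0.047 and 0.017 in siNC cells, so siRPL13 replicate 3 fell among the siNC libraries. The cluster from ZNF175 to ZNF331 (chr19:51571298-53580269) had 0.076 over 6 libraries, with 30 of 37 positive, and 5 rises (13.5%) over 5 libraries: ZNF347, ZNF528, ZNF677, ZNF175 and ZNF665. There the library medians were 0.105, 0.106 and 0.043 in siRPL13 against 0.016, -0.003 and -0.010 in siNC cells, without overlap.

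The most distal cluster, from ZNF628 to ZNF446 (chr19:55476332-58481230), was the largest, with 54 tested genes, a median of 0.050 and 43 positive over 6 libraries. Its library medians overlapped, at 0.078, 0.031 and 0.037 in siRPL13 against 0.002, 0.039 and -0.032 in siNC cells. This cluster held 4 rises (7.41%) over 5 libraries, ZNF580, ZNF134, ZNF583 and ZNF628, and both falls (3.7%), ZNF837 and ZNF784. Both shares were below those of all genes tested, of which 8.42% rose and 10.7% fell. The cluster from ZNF575 to ZNF296 (chr19:43525497-45076588) had a median of 0.044 with 12 of 21 positive, and 0 of its genes were called. Its library medians also overlapped, at 0.017, 0.078 and 0.029 in siRPL13 against 0.021, -0.016 and -0.011 in siNC cells. Its largest difference was that of ZNF283, at 7.42, 7.66 and 7.35 in siRPL13 against 7.24, 7.24 and 7.38 in siNC cells, overlapping only through siRPL13 replicate 3; over 5 libraries it was 0.25 ± 0.09 (SE), with a limma adjusted p of 0.0749. In the small cluster from ZNF302 to ZNF792 (5 genes, 0 called) ZNF30 led, at 7.09, 6.88 and 6.69 in siRPL13 against 6.75, 6.65 and 6.76 in siNC cells, with 0.26 ± 0.09 over 5 libraries and a limma adjusted p of 0.0559. The library medians of that cluster overlapped too, at 0.088, 0.137 and -0.031 in siRPL13 against -0.034, 0.020 and 0.017 in siNC cells.

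Within 19p13 the same 1 Mb spacing set apart a run from ZNF557 to ZNF846 (chr19:7069444-9793180). Its 13 tested genes had a median of 0.115 over 6 libraries and 0.146 over 5, with 12 positive in both. Over 5 libraries 4 (30.8%) rose, ZNF559, ZNF266, ZNF426 and ZNF561, where 8.42% of all genes tested did. The library medians were 0.173, 0.148 and 0.047 in siRPL13 against 0.046, 0.013 and -0.067 in siNC cells. The neighbouring run from ZNF653 to ZNF791, with 20 tested genes, had a median of 0.034 and 1 rise (5.0%), ZNF44. That median was close to the 0.030 of 19p12, and the run from ZNF554 to ZNF77, with 4 tested genes, had -0.018. Of the 7 promoters with the cyclic-AMP response element letters, 5 lay in the run from ZNF557 to ZNF846, at ZNF266, ZNF426, ZNF121, ZNF561 and ZNF562. Of the 19 genes that rose, 16 had a promoter in the table, and 3 of these (ZNF266, ZNF426 and ZNF561) held the element, a pattern seen after the values were known and resting on neighbours related by duplication. The ETS-type letters did not follow the differences: the median was 0.050 in the 82 genes with them and 0.064 in the 104 without, and 7 of the 16 rising promoters (43.8%) held them.

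Differences of neighbouring genes were only weakly correlated. Over 196 pairs of adjacent tested genes in the same cluster, Pearson's r between their 6-library differences was 0.08, and 0.14 over 5 libraries, given as a description since neighbours share libraries and reads. The quartiles of the 6-library differences were 0.005 and 0.119, while their median SE was 0.08. Spread of that size lowers r, so a low r cannot show whether neighbours moved together. Both members of a pair were positive in 110 pairs and negative in 9, where 75.5% of the 208 genes were positive when taken singly.

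**Figure D3:**
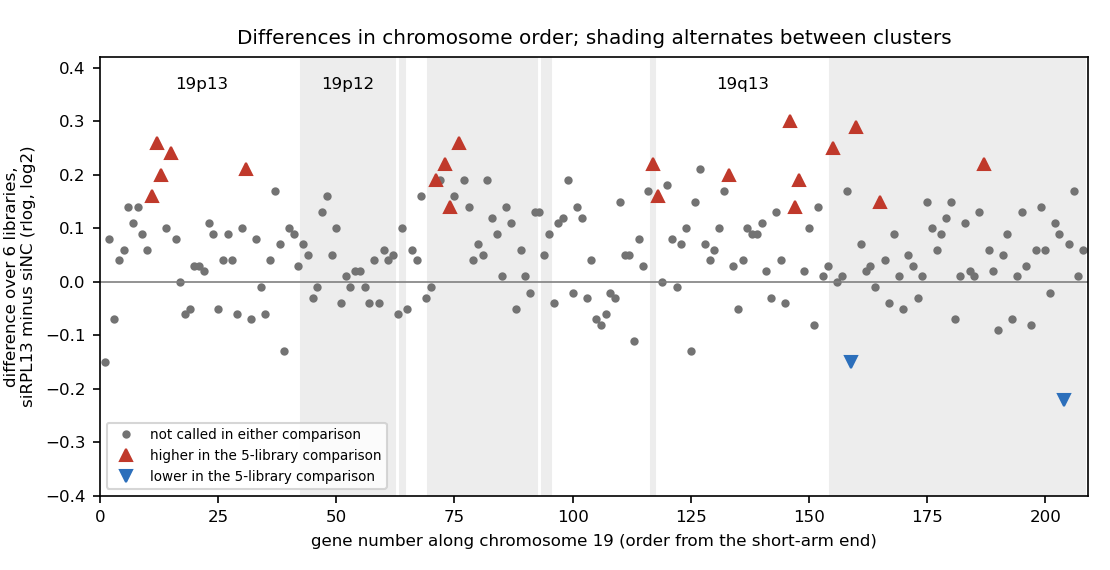
Difference between siRPL13 and siNC over 6 libraries (y axis, rlog, log2 scale) for 208 chromosome 19 ZNF genes in chromosomal order (x axis, gene number). Triangles mark the 19 genes higher and the 2 lower in the 5-library comparison, none of them in 19p12, and shading alternates between clusters.

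Among the genes that rose over 5 libraries, ZNF580, a protein of 3 fingers without the KRAB pattern (chr19:55635016-55643469, plus strand), had the largest difference. It stood at 10.45, 10.47 and 10.08 in siRPL13 cells and 9.98, 10.13 and 10.01 in siNC cells. Replicates 1 and 2 of siRPL13 were clear of the controls and replicate 3 was among them; the 5-library difference was 0.42 ± 0.06 (SE), with a limma adjusted p of 0.00174. Its exons overlap ZNF581 and CCDC106 on the same strand, so reads of these genes could have been shared. ZNF561 (chr19:9604680-9621399, minus strand) stood at 10.29, 10.22 and 9.78 in siRPL13 and 10.03, 9.84 and 9.69 in siNC cells. It overlaps an antisense RNA, ZNF561-AS1, its siRPL13 replicate 3 lay within the siNC range, and it differed by 0.40 ± 0.09 with a limma adjusted p of 0.0108.

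ZNF347 and ZNF461, both KRAB-pattern genes with no annotated exonic overlap, were higher in every siRPL13 library than in any siNC library. ZNF347 (chr19:53124072-53159075, minus strand) stood at 9.26, 9.25 and 8.96 in siRPL13 against 8.87, 8.85 and 8.84 in siNC cells. Its difference was 0.30 over 6 libraries and 0.40 ± 0.06 (SE) over 5, where the limma adjusted p was 0.0024. ZNF461 (chr19:36637192-36666853, minus strand) stood at 7.38, 7.33 and 7.13 in siRPL13 against 7.05, 7.0 and 6.99 in siNC cells, with 0.26 over 6 libraries and 0.34 ± 0.07 over 5 and a limma adjusted p of 0.00997. In both genes siRPL13 replicate 3 lay between the other siRPL13 libraries and the controls.

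Other large rises overlapped the controls in siRPL13 replicate 3. ZNF473 (chr19:50025714-50053414, plus strand), also called ZFP100, a component of the U7 snRNP machinery that cuts histone pre-mRNA, stood at 9.22, 9.11 and 8.71 in siRPL13 against 8.89, 8.70 and 8.78 in siNC cells. Its 5-library difference was 0.37 ± 0.08 (SE), with a limma adjusted p of 0.00764, and VRK3 overlaps it on the opposite strand. ZNF528 stood at 9.14, 9.06 and 8.62 in siRPL13 against 8.86, 8.62 and 8.74 in siNC cells, and ZNF134 stood at 10.20, 10.16 and 9.85 in siRPL13 against 9.90, 9.86 and 9.79 in siNC cells. Their differences were 0.36 ± 0.08 and 0.33 ± 0.06, with limma adjusted p-values of 0.0122 and 0.0043. In ZNF528 siRPL13 replicate 3 equalled the lowest siNC library at the decimals given, and in ZNF134 it lay within the siNC range.

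ZNF426, ZNF559 and ZNF266 are neighbours in 19p13. ZNF426 stood at 8.87, 8.90 and 8.52 in siRPL13 against 8.69, 8.52 and 8.47 in siNC cells, with 0.32 ± 0.08 (SE) over 5 libraries and a limma adjusted p of 0.0165. ZNF559, which shares exons with the read-through transcript ZNF559-ZNF177, stood at 8.62, 8.71 and 8.18 in siRPL13 against 8.41, 8.27 and 8.35 in siNC cells, with 0.32 ± 0.07 and a limma adjusted p of 0.0141; its siRPL13 replicate 3 was the lowest of all 6 libraries. ZNF266 stood at 9.57, 9.49 and 9.37 in siRPL13 against 9.39, 9.11 and 9.15 in siNC cells, and had the largest 6-library difference of 19p13, 0.26 ± 0.09, and 0.31 ± 0.09 over 5, where the limma adjusted p was 0.0276. ZNF260, whose rodent counterpart is known as a regulator of heart genes, stood at 8.75, 8.80 and 8.47 in siRPL13 against 8.25, 8.58 and 8.52 in siNC cells. It differed by 0.32 ± 0.10 with a limma adjusted p of 0.0378, and its siRPL13 replicate 3 lay within the siNC range.

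The 2 genes that fell, ZNF837 and ZNF784, lie in the distal cluster, and neither matched the KRAB pattern. ZNF837 (chr19:58367618-58381060, minus strand) stood at 6.28, 6.29 and 6.54 in siRPL13 against 6.65, 6.62 and 6.5 in siNC cells, with -0.30 ± 0.08 (SE) over 5 libraries and a limma adjusted p of 0.0195. ZNF784 (chr19:55620742-55624601, minus strand) stood at 8.08, 8.13 and 8.35 in siRPL13 against 8.37, 8.32 and 8.31 in siNC cells, with -0.23 ± 0.07 and a limma adjusted p of 0.0394. In both, siRPL13 replicate 3 lay among the controls. Their exons are GC-rich, at 70.1% and 64.8%.

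**Figure D4:**
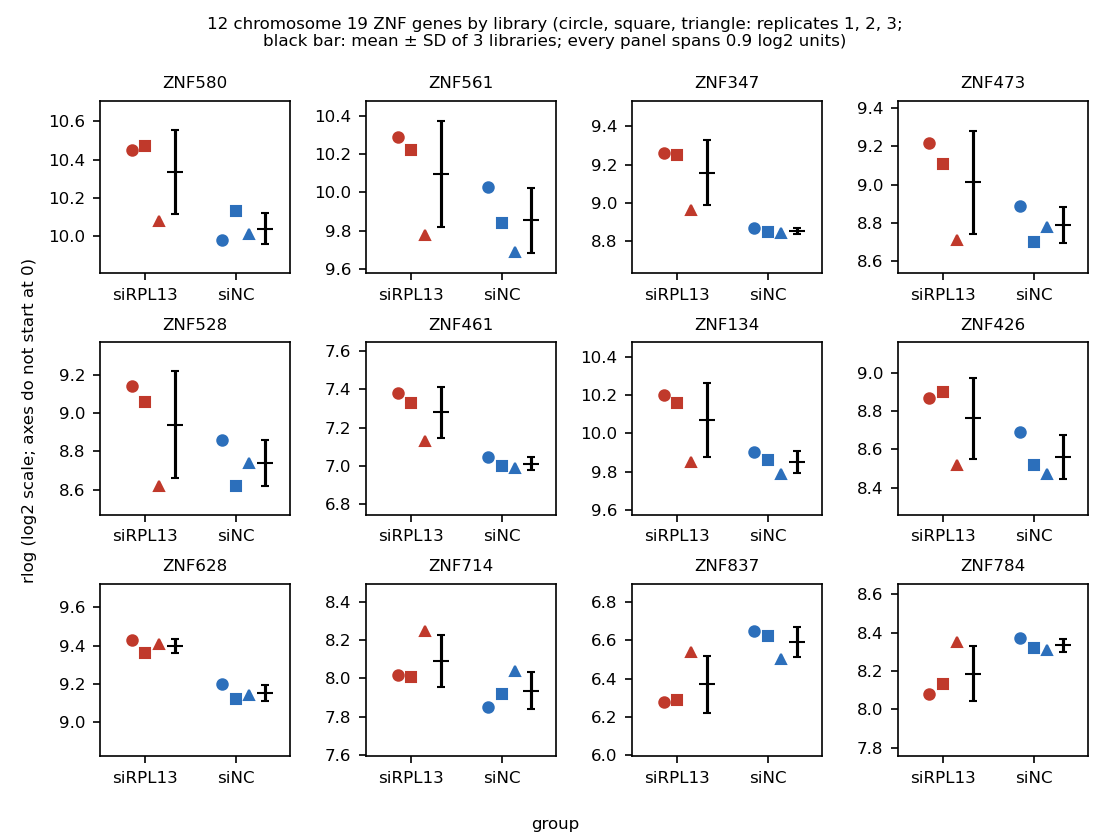
Levels (y axis, rlog, log2 scale, each panel spanning 0.9) of 12 chromosome 19 ZNF genes in each library (x axis, siRPL13 left, siNC right), with the mean ± SD of 3 libraries as a black bar. In ZNF347, ZNF461 and ZNF628 all siRPL13 points lie above all siNC points, and in ZNF837 and ZNF784 siRPL13 replicate 3 (triangle) lies among the siNC points.

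ZNF628, picked with its values known, behaved otherwise than these. It stood at 9.43, 9.36 and 9.41 in siRPL13 against 9.20, 9.12 and 9.14 in siNC cells, with siRPL13 replicate 3 as high as the other siRPL13 libraries. Its difference was 0.25 ± 0.06 (SE) over 6 libraries, where limma gave an adjusted p of 0.589, and 0.24 ± 0.06 over 5, with a limma adjusted p of 0.0236. The other genes whose groups did not overlap over 6 libraries, siRPL13 above, were ZNF14, ZNF44, ZNF180, ZNF234, ZNF256, ZNF347, ZNF358, ZNF382, ZNF440, ZNF461, ZNF497, ZNF507, ZNF557, ZNF562, ZNF566, ZNF567, ZNF576, ZNF677, ZNF749, ZNF761, ZNF814, ZNF836 and ZNF865. ZNF223, ZNF554 and ZNF765 were separated the other way. In every one of the 208 genes the 6-library adjusted p of limma was at least 0.589.

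Expression was low for most of these genes. Their mean rlog had a median of 7.60, against 9.12 over all genes tested, and per kilobase of exon (mean rlog minus log2 of the exon length in kilobases) the median was 5.23 against 6.87. The 3 highest per kilobase all lacked the KRAB pattern. ZNF428, with a single C2H2 finger, was at 9.82 per kilobase and stood at 10.70, 10.72 and 10.77 in siRPL13 against 10.55, 10.71 and 10.59 in siNC cells, the groups overlapping. ZNF787 was at 9.13 and ZNF358 at 8.79 per kilobase. ZNF787 stood at 10.93, 10.96 and 11.15 in siRPL13 against 10.96, 11.00 and 11.01 in siNC cells. ZNF358 stood at 9.92, 9.92 and 9.90 in siRPL13 against 9.74, 9.82 and 9.75 in siNC cells, with all siRPL13 values above all siNC values, a difference of 0.14 ± 0.06 (SE) over 6 libraries and a limma adjusted p of 0.589. The lowest were the KRAB-pattern genes ZNF540 (1.04), ZNF486 (1.35) and ZNF154 (1.58), whose differences stayed within 0.1 of 0 over 6 libraries.

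Across the 208 genes the 6-library difference had a Spearman correlation of 0.32 with mean level, 0.21 with the number of fingers, 0.20 with exon length and -0.14 with exon GC content. Among 11978 other protein-coding genes the values for level, length and GC were -0.07, 0.06 and -0.06. Over 5 libraries the value for GC was -0.10 across the 208 genes and -0.21 among the other protein-coding genes. These describe genes of the same 6 libraries and are given without a test. Since rlog pulls low genes towards their mean, the differences of the lowest genes are understated.

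Corepressor and heterochromatin genes linked to KRAB proteins were listed separately. The 44 listed genes include the NuRD and HUSH complexes, heterochromatin proteins, and histone and DNA methyltransferases. They also include the demethylases KDM4A, KDM4B and KDM4C, so the list is not of silencing factors alone. Of the 44, 40 were tested. Over 5 libraries 0 rose, where 8.42% of all genes tested did, and 6 fell (15%), where 10.7% did, so the share that fell was near the background. Their median difference was -0.030 over 5 libraries and -0.005 over 6, against -0.001 over all genes tested in both. The 6 falls became 0 without siRPL13 replicate 1, 1 without siRPL13 replicate 2 and 9 (with 1 rise) without siNC replicate 1. TRIM28, itself on chromosome 19, stood at 14.07, 14.04 and 14.34 in siRPL13 against 14.11, 14.20 and 14.18 in siNC cells, and its 5-library difference of -0.11 ± 0.05 (SE) had a limma adjusted p of 0.163. Over 6 libraries the TRIM28 difference was -0.01 ± 0.09. SETDB1 stood at 9.61, 9.63 and 9.79 in siRPL13 against 9.61, 9.71 and 9.68 in siNC cells. It differed by -0.04 ± 0.06 over 5 libraries, with a limma adjusted p of 0.65, and by 0.01 ± 0.07 over 6.

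The largest fall of the list was that of SUV39H1, another H3 lysine 9 methyltransferase, at 8.68, 8.58 and 9.10 in siRPL13 against 8.96, 8.96 and 9.01 in siNC cells. It differed by -0.35 ± 0.07 (SE) over 5 libraries, with a limma adjusted p of 0.00639, and siRPL13 replicate 3 was the highest of all libraries. Over 6 libraries the SUV39H1 difference was -0.19 ± 0.13, with a limma adjusted p of 0.646. The demethylase KDM4B, the heterochromatin protein gene CBX1, the histone-binding RBBP7, the NuRD helicase CHD4 and the DNA methyltransferase DNMT1 fell by 0.29, 0.28, 0.25, 0.24 and 0.23 over 5 libraries. Their limma adjusted p-values there were 0.00841, 0.00501, 0.0149, 0.00918 and 0.00915. Over 6 libraries their differences were -0.16, -0.20, -0.19, -0.14 and -0.11, with limma adjusted p-values of 0.589 to 0.704. In KDM4B, CHD4 and DNMT1 siRPL13 replicate 3 was the highest of all libraries, at 11.00, 13.72 and 13.35. ZNF274, a chromosome 19 member known to bring SETDB1 to the coding ends of other zinc finger genes and picked with its values known, stood at 9.38, 9.32 and 9.47 in siRPL13 against 9.46, 9.43 and 9.36 in siNC cells. Its groups overlapped, and its 5-library difference was -0.06 ± 0.06 with a limma adjusted p of 0.527.

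The definition leaves out 6 lettered ZNF genes of chromosome 19 in the table. Of these ZNF585A, ZNF585B and ZNF780B rose over 5 libraries, where 8.42% of all genes tested did. The other 3 did not pass, with 5-library differences of 0.06 for ZNF780A, -0.01 for ZNF324B and -0.16 for ZNF587B. ZNF585A stood at 7.55, 7.43 and 6.76 in siRPL13 against 6.77, 7.01 and 7.02 in siNC cells. Its 5-library difference of 0.56 ± 0.09 (SE), with a limma adjusted p of 0.00343, exceeded that of any gene inside the definition, and its siRPL13 replicate 3 was the lowest of all libraries. Over 6 libraries the ZNF585A difference was 0.31 ± 0.19, with a limma adjusted p of 0.627. On other chromosomes the largest rise among ZNF genes was that of ZNF853, at 10.47, 10.40 and 10.01 in siRPL13 against 9.99, 10.06 and 9.96 in siNC cells, with 0.43 ± 0.06 and a limma adjusted p of 0.00114. The largest fall was that of ZNF76, a relative of the snRNA promoter activator ZNF143, at 8.98, 8.94 and 9.63 in siRPL13 against 9.47, 9.52 and 9.41 in siNC cells, with -0.51 ± 0.06 and a limma adjusted p of 0.00095. That fall exceeded the -0.30 of ZNF837, the largest among chromosome 19 ZNF genes, but the difference between the falls was not tested. Over 6 libraries ZNF853 and ZNF76 differed by 0.29 ± 0.12 and -0.28 ± 0.17, with limma adjusted p-values of 0.589 and 0.623.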

How the data were processed

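RNA sequencing libraries of 6 U251 cultures were compared, 3 electroporated with siRPL13 and 3 with siNC, with RNA taken at 72 h; groups and replicate numbers came from the labels. The authors deposited 1 regularized-log (rlog) value per Ensembl gene and library, on the log2 scale, as the table's name states; such values are scaled for library size and shrunk towards the gene's mean. DESeq2, HTSeq 0.6.1p1, TopHat, Trimmomatic 0.33 and the build GRCh38.p7 are named in the submitters' processing notes, without roles. The depth is unknown, and count models were not applied to these transformed values. Library medians over the genes tested were 9.12 to 9.13, and no pair of libraries shared identical values (0 per pair).

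Symbols came from a table of current gene names (20499 of 21429 rows) and positions from GENCODE 29 (20608); 821 rows were in neither. ZNF875 carries an older symbol in GENCODE 29 and was kept under the current one. C2H2 fingers and the KRAB A-box were counted as letter patterns in the translated longest coding sequence of each gene. Promoters are from RefSeq (GRCh38.p14).

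Genes whose rlog averaged 3 or more were tested with limma 3.58.1 in R 4.3.3 (two-sided, eBayes with a trend on mean level, Benjamini-Hochberg over 15327 genes, threshold 0.05), over 6 libraries and over 5 without siRPL13 replicate 3. Every SE is that of the limma fit. The procedure was tested on simulated data with changes of 0.5 and 1 and the siNC spread in every library. It recovered 77% and 97% of these over 6 libraries, and 67% and 92% over 5. Changes as small as those of the 208 genes, at most 0.42 over 5 libraries, and a divergent siRPL13 library were not simulated. What the p-values measure is the spread between these libraries, which the labels call biological replicates without saying how cultures were separated. Genes, lists and tests were chosen with earlier results of these data known. Genes named by rule were RPL13; the 3 highest and 3 lowest per kilobase; up to 10 called genes in each direction whose groups did not overlap, by size over 5 libraries; the largest difference in each cluster of at least 5 tested genes; TRIM28, SETDB1 and the 5 largest called corepressor genes; and the largest change each way among ZNF genes elsewhere. Every other gene, lettered symbols included, was named with its values known. Alternatives were quantile scaling, median centring, testing every gene or only those averaging 5 or more, eBayes without trend or with a robust one, arrayWeights, a replicate block and leaving out each library. Figures were drawn with matplotlib 3.10.9.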

Additional observations from a re-analysis of the deposited data

How the results depend on the processing

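The median difference of the 208 genes held its direction and size under every alternative tried, at 0.047 to 0.074 over 6 libraries and 0.059 to 0.088 over 5, while counts of single genes did not. Over 6 libraries the count of called genes was 61 in place of 0 with library weights (arrayWeights, which gave siRPL13 replicate 3 the lowest weight), and 0 to 21 on leaving out 1 library, 21 being without siRPL13 replicate 3. With these weights 2601 of all 15327 genes tested were called higher and 2708 lower, so calls became frequent among all genes as well. With the replicate number as a block (replicate block) it was 0, with 8 higher and 0 lower at an unadjusted p under 0.05. Deviations of same-numbered libraries from their group means correlated at 0.084, -0.428 and -0.328. Deviations within a group depend on each other, so these values cannot settle whether the numbers pair the libraries. Over 5 libraries the count of 21 became 37 with arrayWeights and 14 to 29 on leaving out 1 siNC library, 29 being without siNC replicate 1. Of all 15327 genes tested, 2007 were called higher and 2291 lower with arrayWeights, and 1734 and 2014 without siNC replicate 1. The counts of these ZNF genes thus rose where those of all genes did. Leaving out siRPL13 replicate 1 or 2 gave smaller counts but leaves a single siRPL13 library. The corepressor count of 6 became 12 with arrayWeights (2 higher, 10 lower) and 0 to 10 on leaving out 1 library, 0 without siRPL13 replicate 1, 1 without replicate 2 and 10 without siNC replicate 1. Genes with separate groups numbered 27 over 6 libraries and 95 without siRPL13 replicate 3, an alternative added after seeing the data. Among all genes tested, 6.92% were separated upwards and 6.9% downwards over 6 libraries. Without siRPL13 replicate 3 these shares were 24.7% and 26.6%, so separation was more frequent among all genes as well. ZNF787 changed sign to -0.04 with arrayWeights and ranged from -0.04 (without siRPL13 replicate 3) to 0.07 on leaving out 1 library, and ZNF486 to 0.01 without siNC replicate 3, all within the spread of their libraries. Of the cluster medians under alternatives, 112 moved by less than the siNC spread and 43 by more. The KRAB pattern was read from GENCODE coding sequences, as RefSeq proteins were not used here. Counts both rose and fell on leaving out 1 library, and the cause was not tested.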
